A study of Mus musculus with 21 samples.

Results

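Threonine transfer RNAs of the nuclear genome were followed in the cerebrum and cerebellum of mice with a Polr3a mutation. The members were all deposited tRNA rows named for threonine that were not marked as mitochondrial. There were 14 such rows, 7 with the anticodon AGT, 4 with CGT and 3 with TGT, out of 209 tRNA rows in the cerebrum table and 208 in the cerebellum table. A row is an isodecoder, a tRNA body that shares its anticodon with sister sequences, and each was examined alone and in the sum of its anticodon.

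The mice were of the C57BL/6J strain, and all of them, wildtype included, were given tamoxifen at postnatal day 28 and sampled at postnatal day 42. One genotype is labelled Polr3a mutant and the other wildtype, the tamoxifen served to induce recombination, and every group held both sexes. The sources used here do not name the Cre driver, and so not the cells that recombined. QuantM-tRNA-seq libraries, made from total RNA by a method suited to the tight fold and base modifications of tRNA, came from 5 mutant and 6 wildtype cerebellum samples and from 4 mutant and 6 wildtype cerebrum samples. Whether each library stands for 1 mouse is not stated in the labels, and p-values reflect only how far these libraries spread. In bulk tissue, fewer cells of a type and less of a tRNA per cell cannot be told apart. Polr3a and cell type markers are messenger RNAs and are not measured in such a library, so neither the mutation nor the tissue could be checked here.

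Threonine tRNAs carry threonine to the codons that begin with AC. The anticodon AGT is edited at its first base to inosine, which lets it read several codon endings, whereas CGT and TGT tRNAs read the codons ending in G and in A. RNA polymerase III, whose largest subunit is encoded by Polr3a, makes all of the nuclear ones from promoter boxes that lie inside the gene, and mitochondrial threonine tRNA is made by another polymerase.

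The RefSeq annotation (GRCm38.p6) lists 17 nuclear threonine tRNA genes on chromosomes 7, 11, 13, 14 and 16, 9 for AGT, 4 for CGT and 4 for TGT. No table links its gene symbols to the deposited row names, so no row could be given a position. One nuclear gene sequence was available and is shown with its mitochondrial counterpart to make clear what is counted. The capitals mark the anticodon, n-TTagt9 lies at chr7:35234770-35234843, where it was read on the minus strand, and mt-Tt at chrM:15289-15355 on the plus strand (GENCODE M21, GRCm38).
n-TTagt9: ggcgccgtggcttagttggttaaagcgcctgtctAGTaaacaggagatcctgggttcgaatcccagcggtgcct
mt-Tt: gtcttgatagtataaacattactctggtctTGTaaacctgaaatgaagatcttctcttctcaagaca
The nuclear gene spans 74 bases and the mitochondrial one 67. The letters GGTTCGA, which begin the internal promoter's B box, were searched on both strands and found at bases 53 to 59 of n-TTagt9 and not in mt-Tt. They occurred in 0.91% of 32851 RefSeq promoter windows.

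Cerebrum libraries held 4353056 to 7588902 tRNA counts. Cerebellum libraries held 1612754 to 7110313 and fell into separate depth classes, a deep one with 4 mutants and 1 wildtype library and a shallow one with 1 mutant and 5 wildtype libraries, so depth and genotype were nearly the same split there. Threonine rows took 3.39% ± 0.225 (SD, n = 5) of nuclear tRNA counts in mutant cerebellum and 3.03% ± 0.238 (SD, n = 6) in wildtype cerebellum. The cerebrum share was 3.80% ± 0.422 in mutants and 3.79% ± 0.256 in wildtype (SD, n = 4 and 6). Mitochondrial tRNAs made up 17.2% of counts in mutant and 13.4% in wildtype cerebellum, and 14.3% in mutant and 11.2% in wildtype cerebrum. Levels below are CPM, tRNA counts brought to a common library total, with TMM scaling within a tissue, which sets the bulk of tRNAs equal between libraries. Anticodon sums were scaled on their own table.

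The threonine pool was uneven. Thr-AGT-2-1 was the most abundant row in all 4 groups and held 30.9% of the threonine level in mutant cerebellum, 31.6% in wildtype cerebellum, 29.6% in mutant cerebrum and 29.9% in wildtype cerebrum. Thr-TGT-1-1 came next in all 4 groups, with 17.2%, 16.4%, 19.2% and 17.2% in the same order. Thr-CGT-1-1, Thr-CGT-2-1 and Thr-AGT-4-1 followed, each between 10.01% and 12.9%, and neighbours among these 3 overlapped between libraries in each group. Thr-CGT-3-1 held 6.91% to 8.65% and stood apart from the next lower row in each group, while in mutant cerebellum it overlapped Thr-CGT-2-1. Thr-AGT-6-1, Thr-AGT-5-1, Thr-TGT-3 and Thr-CGT-4-1 came below it, each with 1.33% to 3.45%. Thr-TGT-2-1, Thr-AGT-1 and Thr-AGT-7-1 each held under 1%, and Thr-AGT-3-1 rested on only 1 to 29 counts per library. Near-identical isodecoders can share reads, and the sources used here do not say how such reads were assigned, so levels of single rows are uncertain. Thr-AGT-6-1 ranked 8th in mutant cerebrum and 7th in the other 3 groups, and Thr-AGT-5-1 ranked 10th in mutant cerebrum against 8th in wildtype cerebrum.

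**Figure D1:**
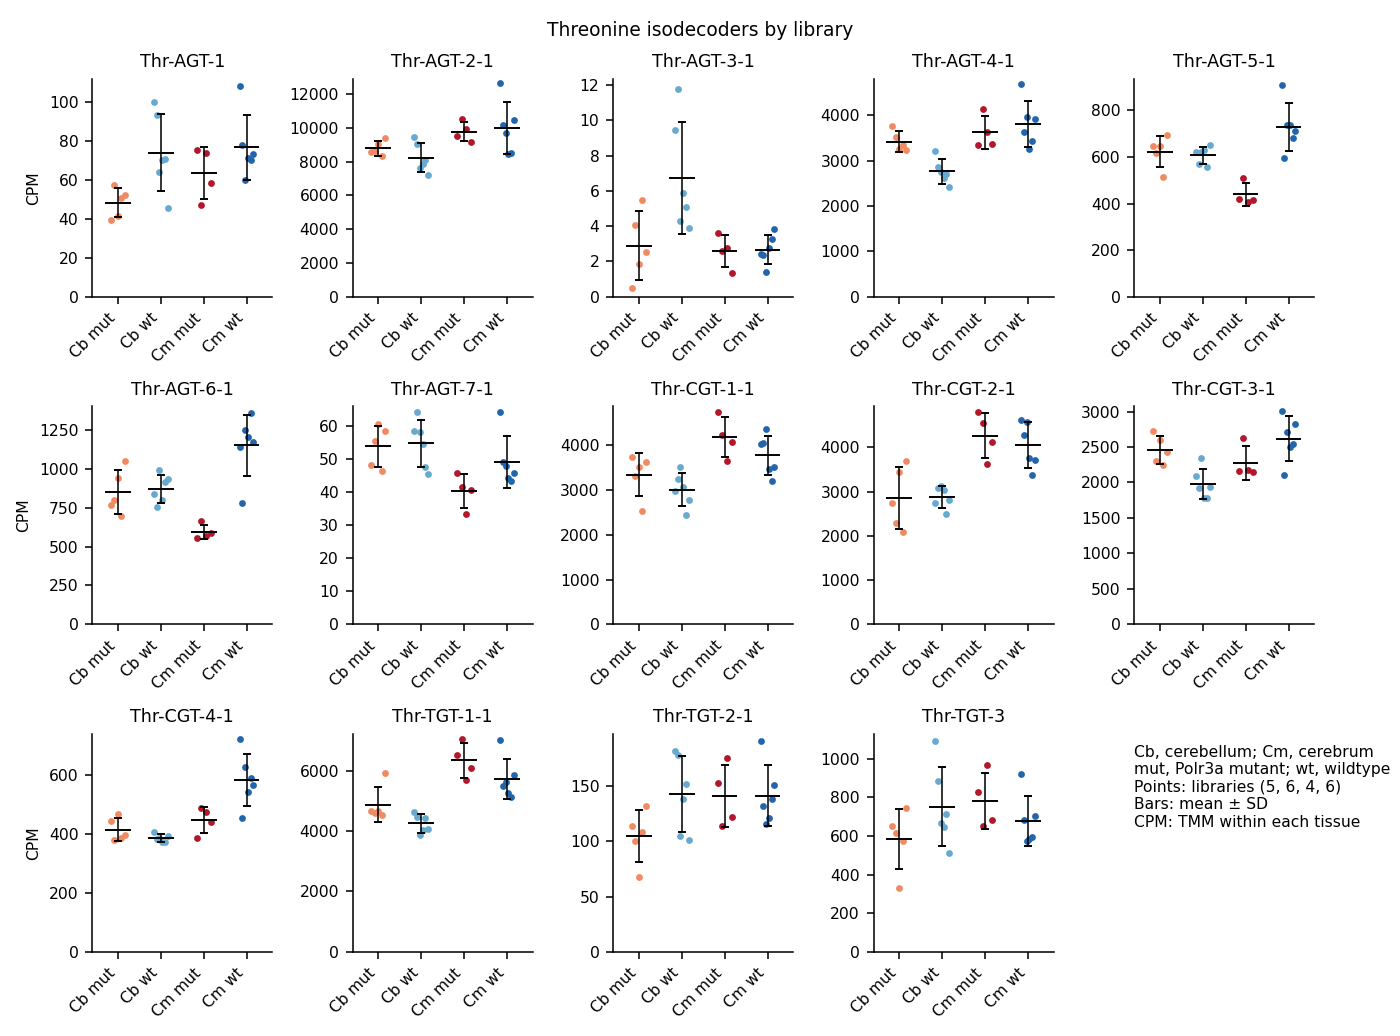
CPM of each threonine isodecoder (vertical axes, linear, from 0) in cerebellum (Cb) and cerebrum (Cm), with Polr3a mutant libraries left of wildtype ones. Points are libraries and bars are mean ± SD; the 4 cerebrum mutants lie below all 6 wildtype libraries for Thr-AGT-5-1 and Thr-AGT-6-1, while their cerebellum groups overlap.

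In cerebrum, the minor AGT isodecoders Thr-AGT-5-1 and Thr-AGT-6-1 fell in mutants and the other 12 threonine rows did not pass the test. By mean level Thr-AGT-6-1 fell by 48.4% and Thr-AGT-5-1 fell by 39.8%. The major rows of all 3 anticodons, Thr-AGT-2-1, Thr-CGT-2-1 and Thr-TGT-1-1, overlapped between genotypes. The share of threonine rows lower, 2 of 14, stood near that of the whole table, where 11.5% of 208 tRNAs were lower and 8.17% higher (19.7% in either direction), by edgeR's quasi-likelihood test at a Benjamini-Hochberg adjusted p under 0.05. Scaled to library totals, the same number of threonine rows was lower, and the whole table split into 12.0% lower and 2.88% higher. The median log2 fold change was −0.05 over the 14 rows and −0.03 over all tRNAs.

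Thr-AGT-6-1 had 555, 663, 572 and 588 CPM in mutants 1 to 4, against a lowest of 782, a median of 1188 and a highest of 1362 CPM in wildtype. All 4 mutants lay below all 6 wildtype libraries, and the nearest wildtype library was wildtype 2. The fitted log2 change was −0.96 ± 0.15 (SE, edgeR adjusted p = 0.000114). Thr-AGT-5-1 had 421, 512, 408 and 417 CPM in mutants and a lowest of 596, a median of 726 and a highest of 909.8 CPM in wildtype. Again the groups did not overlap, mutant 2 being the highest mutant and wildtype 2 the lowest wildtype library, and the log2 fold change was −0.73 ± 0.14 (SE, edgeR adjusted p = 0.000613). Ranges that do not overlap, with mutants lower, were found for 9.62% of all tRNAs in this comparison. Both rows were singled out from earlier results in these cerebrum libraries, so their fall there is a description and not independent evidence.

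The major AGT row, Thr-AGT-2-1, had 9497, 10498, 9912 and 9177 CPM in mutant cerebrum, against a lowest of 8433, a median of 9932 and a highest of 12621 CPM in wildtype. Every mutant lay inside the wildtype range, and the log2 fold change was −0.03 ± 0.12 (SE). The next AGT row, Thr-AGT-4-1, averaged 3628 ± 369 CPM in mutants and 3821 ± 507 CPM in wildtype (SD, n = 4 and 6), a log2 fold change of −0.07. Of the rare AGT rows, Thr-AGT-1 was at −0.27, Thr-AGT-7-1 at −0.28 and Thr-AGT-3-1 at −0.03 on the log2 scale. With TMM all 7 AGT rows therefore had fitted values below 0, with a median of −0.27, but only the 2 named above passed. Of all 208 tRNAs, 108 were below 0. With RLE scaling Thr-AGT-2-1 and Thr-AGT-3-1 turned to 0.032 and 0.027, and in DESeq2 both were above 0 as well.

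The CGT rows were divided in sign. Thr-CGT-2-1 had 4788, 4539, 3612 and 4128 CPM in mutant cerebrum, against a lowest of 3367, a median of 4023 and a highest of 4621 CPM in wildtype. The ranges overlapped, and its log2 fold change was 0.07 ± 0.12 (SE), beside 0.15 ± 0.12 for Thr-CGT-1-1. The lower-abundance Thr-CGT-3-1 and Thr-CGT-4-1 were at −0.20 ± 0.12 and −0.38 ± 0.14 (SE). Thr-CGT-4-1 averaged 447 ± 44.7 CPM in mutants and 583 ± 88.4 CPM in wildtype (SD, n = 4 and 6) and narrowly missed the threshold (edgeR adjusted p = 0.0581). It passed with sex as a covariate (adjusted p = 0.0477) and without wildtype 2 (adjusted p = 0.0294). It also passed with mitochondrial total scaling (−0.77, edgeR adjusted p = 0.000169) and with spike-in scaling (−0.73, edgeR adjusted p = 0.00507). On those scales 53.4% and 35.6% of all tRNAs were lower.

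Among TGT rows, Thr-TGT-1-1 had 6514, 7054, 5699 and 6091 CPM in mutant cerebrum, against a lowest of 5138, a median of 5561 and a highest of 7006 CPM in wildtype. One mutant lay above the wildtype range and the others inside it, with a log2 fold change of 0.15 ± 0.11 (SE). Thr-TGT-3 was at 0.21 ± 0.15 and Thr-TGT-2-1 at 0.00 ± 0.17 on the same scale, and neither passed. Mitochondrial threonine tRNA rose in the table of single tRNAs, with 4430.5, 5859, 5789 and 5909.5 CPM in mutants and a lowest of 3189, a median of 4113 and a highest of 4744 CPM in wildtype. Of its mutants, 3 lay above every wildtype library, and the log2 fold change was 0.41 ± 0.13 (SE, edgeR adjusted p = 0.0266). The rise was not particular to it, as 15 of 22 mitochondrial tRNAs were higher and 0 lower, with a median of 0.42. In the anticodon table mitochondrial threonine tRNA was at 0.33 ± 0.13 and did not pass (edgeR adjusted p = 0.0956). With spike-in scaling 0 of 22 mitochondrial tRNAs passed or had an unadjusted edgeR p under 0.05. In the authors' deposited table the adjusted p of mitochondrial threonine tRNA was 0.998.

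Summed by anticodon, no threonine family passed in cerebrum (11.1% of 72 anticodons did). In the main TMM fit, with filterByExpr and no covariate, no threonine sum had an unadjusted edgeR p under 0.05, and DESeq2 called none. Thr-AGT had 12862, 15556, 14204 and 13674 CPM in mutants, against a lowest of 14466, a median of 15988 and a highest of 19274 CPM in wildtype. Of the mutants, 3 lay below every wildtype library and mutant 2 inside their range, and the log2 fold change was −0.20 ± 0.12 (SE, edgeR adjusted p = 0.27, unadjusted p = 0.0994). Its unadjusted p was 0.0266 with RLE scaling, 0.0257 with a mean count of at least 50, 0.0247 with a replicate block, 0.0105 with spike-in scaling and 0.025 in DESeq2, with no adjusted p under 0.0613 among these. Thr-CGT had 11143, 11627, 9623 and 10796 CPM in mutants and a lowest of 9947, a median of 10904 and a highest of 12980.5 CPM in wildtype. Thr-TGT had 6910.1, 7647, 6640.3 and 6902 CPM in mutants and a lowest of 6022, a median of 6528 and a highest of 8007 CPM in wildtype. Both sums overlapped between genotypes, at −0.06 ± 0.12 for CGT and 0.07 ± 0.12 for TGT (log2, SE).

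The direction of the smaller changes rested on the scale. On the scale of the mitochondrial total, cerebrum tRNAs as a whole had a median of −0.41 and the 14 threonine rows one of −0.44, with all 14 fitted values below 0. On that scale 9 threonine rows were lower and none higher, where 53.4% of all tRNAs were lower, and the sums Thr-AGT and Thr-CGT passed at −0.51 and −0.38, as did 36.1% of anticodons. They were 6 of the 7 AGT rows, all but Thr-AGT-3-1, and 3 of the 4 CGT rows, all but Thr-CGT-1-1. Thr-CGT-2-1, above 0 with TMM, was at −0.32 (adjusted p = 0.0371). Thr-AGT-6-1 and Thr-AGT-5-1 were again the lowest of the family, at −1.35 and −1.12. In the authors' deposited table, 8 threonine rows were lower in mutant cerebrum, where 57.4% of all tRNAs were, and its mitochondrial tRNAs had a median near 0. Its cerebrum fold changes per tRNA run wildtype over mutant, as a comparison with the counts showed. Summed by anticodon, the authors' deposited table had Thr-AGT at −0.53 and Thr-CGT at −0.39 on the log2 scale, mutant over wildtype, both lower (as were 44.4% of anticodons), with Thr-TGT at −0.26 not passing. With spike-in scaling 6 threonine rows were lower, where 35.6% of all tRNAs were. In raw counts, nuclear threonine tRNAs had 6.09 ± 1.04 counts per mitochondrial threonine count in mutant cerebrum and 8.29 ± 2.22 in wildtype cerebrum (SD, n = 4 and 6). The same ratio was 2.59 ± 0.464 in mutant and 2.93 ± 0.482 in wildtype cerebellum (SD, n = 5 and 6), and neither ratio was tested.

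In cerebellum, no threonine row passed, against 2.48% of 202 tRNAs in all, and 5 of the 14 had an unadjusted p under 0.05 in the edgeR test, as did 40 of the 202. DESeq2 called 3 (11.4% of all tRNAs), Thr-AGT-4-1 and Thr-CGT-3-1 higher and Thr-AGT-1 lower. With TMM, Thr-AGT-6-1 and Thr-AGT-5-1, which were lower in cerebrum, had log2 fold changes near 0 in cerebellum. Over the alternative settings their lowest values were −0.58 and −0.52, and neither row passed in any. The TMM median over the 14 rows was 0.01, beside −0.03 over all tRNAs. On the mitochondrial scale all 14 fitted values were below 0, with a median of −0.34, beside −0.37 over all tRNAs. With spike-in scaling all 14 were again below 0, with a median of −0.53, beside −0.59 over all tRNAs. In the authors' deposited table Thr-AGT-6-1 was at −0.34 and Thr-AGT-5-1 at −0.28 in cerebellum, and neither passed.

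Thr-AGT-6-1 had 765, 797, 942, 698 and 1052 CPM in cerebellum mutants 1 to 5, against a lowest of 754, a median of 875 and a highest of 992 CPM in wildtype. One mutant was above and 1 below the wildtype range, and the log2 fold change was −0.03 ± 0.12 (SE, edgeR adjusted p = 0.924). Thr-AGT-5-1 had 645, 616, 648, 513 and 694 CPM in mutants, against a lowest of 555, a median of 620.2 and a highest of 650.5 CPM in wildtype. It was placed in the same way, with a log2 change of 0.04 ± 0.10 (SE, edgeR adjusted p = 0.916).

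Other cerebellum values leaned in both directions with TMM, without passing. Thr-AGT-4-1 averaged 3425 ± 222 CPM in mutants and 2765 ± 274 CPM in wildtype (SD, n = 5 and 6), or 0.31 ± 0.10 as a fitted log2 change (SE, edgeR adjusted p = 0.1). All 5 mutants lay above all 6 wildtype libraries, as they did for 0.990% of all tRNAs. Thr-CGT-3-1 was at 0.31 ± 0.11 and had 3 mutants above every wildtype library. Within the deep class, Thr-AGT-4-1 averaged 3340 CPM in 4 mutants and 2708 CPM in the wildtype library, and within the shallow class it had 3764 CPM in the mutant and a mean of 2777 CPM in 5 wildtype libraries. Thr-CGT-3-1 stood at 2392 CPM in mutants and 1777 CPM in wildtype in the deep class, and at 2724 and 2017 CPM in the shallow one. Both rows passed without mutant 5 (adjusted p = 0.0277 and 0.0436), when 16.2% of all tRNAs were called. Neither was called on the mitochondrial scale, where both fitted values, like those of all 14 threonine rows, were below 0. With spike-in scaling Thr-AGT-4-1 and Thr-CGT-3-1 were each at −0.26.

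The 4 lowest fitted values in cerebellum mutants did not pass with TMM. Thr-AGT-1 averaged 48.3 ± 7.50 CPM in mutants and 74.1 ± 19.96 CPM in wildtype (SD, n = 5 and 6), a log2 fold change of −0.61 ± 0.20 (SE). Thr-TGT-2-1 was at −0.45 ± 0.20 and Thr-TGT-3 at −0.37 ± 0.21, both with overlapping groups. Thr-AGT-3-1 was at −1.07 ± 0.40, with a mean of 15.4 counts per mutant and 16.5 per wildtype library, too few to place it closely. These 4 rows were the ones lower on the mitochondrial scale (26.2% of all tRNAs lower), with spike-in scaling (41.1% lower) and in the authors' deposited table (24.5% lower). Thr-AGT-7-1 was at −0.02, Thr-CGT-1-1 at 0.16, Thr-CGT-2-1 at −0.02 and Thr-CGT-4-1 at 0.10 on the log2 scale with TMM.

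The major rows were close between genotypes in cerebellum. Thr-AGT-2-1 had 8549, 8638, 9024, 8312 and 9407 CPM in mutants and a lowest of 7226, a median of 7972 and a highest of 9475 CPM in wildtype, a log2 fold change of 0.10 ± 0.10 (SE). Every mutant lay inside the wildtype range. Thr-CGT-1-1, the most abundant CGT row there in both genotypes, had 3738, 3315, 3507, 2532 and 3626 CPM in mutants and a lowest of 2442, a median of 3027 and a highest of 3509 CPM in wildtype. Thr-TGT-1-1 had 4675, 4594, 4655, 4525 and 5924 CPM in mutants, against a lowest of 3873, a median of 4245 and a highest of 4644 CPM in wildtype, a log2 fold change of 0.20 ± 0.11 (SE). Mutant 5 stood well above the rest for Thr-TGT-1-1, and the groups of both rows overlapped.

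Anticodon sums of threonine did not pass in cerebellum, and 0 of the 71 anticodons tested did. Thr-AGT had 13216, 13828, 13996, 12894 and 13369 CPM in mutants and a lowest of 11704, a median of 12644 and a highest of 14851 CPM in wildtype. Thr-CGT had 9219.5, 8367, 10029.5, 7204 and 9333 CPM in mutants, against a lowest of 7163, a median of 8612 and a highest of 9086 CPM in wildtype. Thr-TGT had 5206, 5361, 5066, 5178 and 6269 CPM in mutants, against a lowest of 4502, a median of 5224 and a highest of 6132 CPM in wildtype. Groups overlapped for all 3, with log2 fold changes of 0.07 ± 0.10, 0.07 ± 0.11 and 0.04 ± 0.10 (SE) for AGT, CGT and TGT, and unadjusted p of 0.519, 0.514 and 0.681. DESeq2 called none of the 3 either. The mitochondrial threonine tRNA was at 0.33 ± 0.13 (SE, edgeR adjusted p = 0.177).

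**Figure D2:**
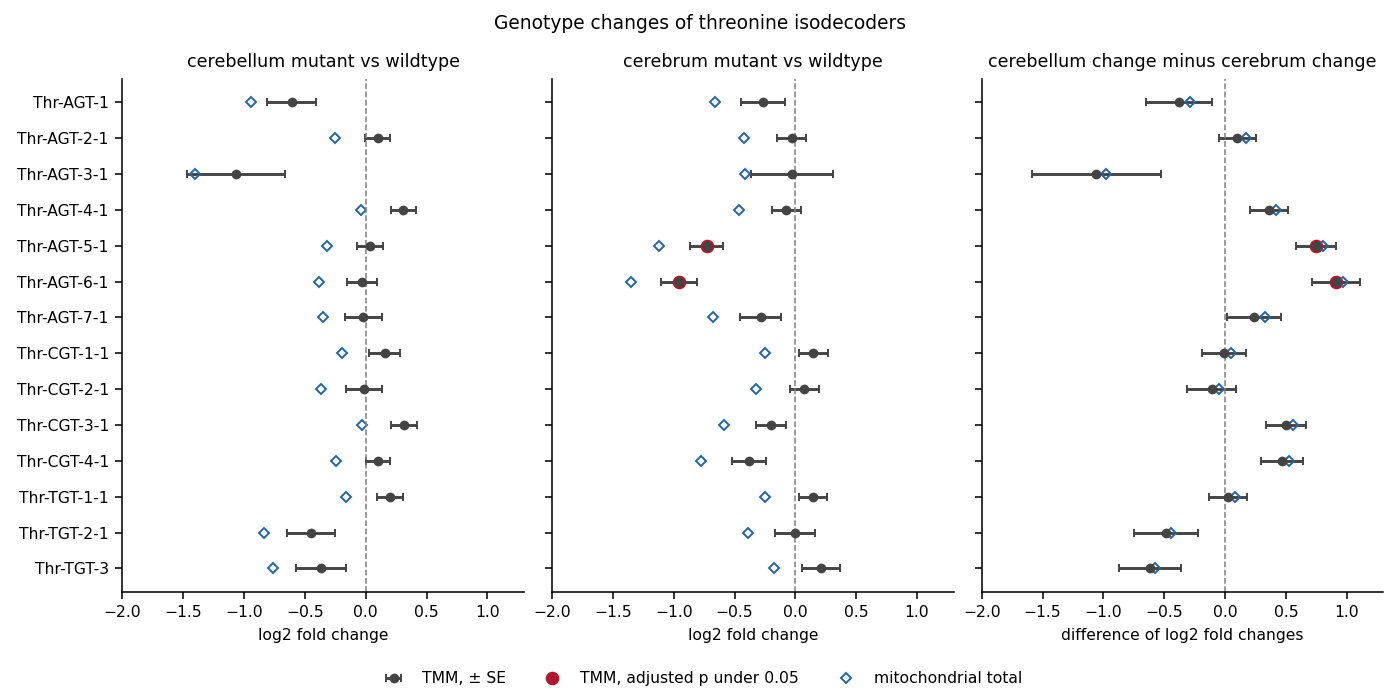
Log2 fold changes of each threonine isodecoder, mutant over wildtype, in cerebellum and cerebrum, and their difference (horizontal axes, log2); dots are TMM estimates ± SE, red where the adjusted p is under 0.05, and diamonds use the mitochondrial total. Thr-AGT-5-1 and Thr-AGT-6-1 are red in cerebrum at −0.73 and −0.96 and in the difference at 0.74 and 0.91, and most diamonds lie left of the dots within each tissue.

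The genotype change itself differed between tissues for Thr-AGT-6-1 and Thr-AGT-5-1. The cerebellum change minus the cerebrum change was 0.91 ± 0.20 for Thr-AGT-6-1 and 0.74 ± 0.16 for Thr-AGT-5-1 (log2, SE, edgeR adjusted p = 0.00916 for each), in a fit of all 21 libraries. That fit treats the libraries as independent, though cerebellum and cerebrum libraries with the same number may come from 1 mouse, which the labels do not state. Both were among the 10 tRNAs of 204 that passed (4.90%, all of them positive), and they had the lowest p-values of the table. This test contains the cerebrum change for which the rows were singled out. Thr-CGT-3-1 (0.50 ± 0.17, adjusted p = 0.0694) and Thr-CGT-4-1 (0.47 ± 0.17, adjusted p = 0.137) had positive values that did not pass, and Thr-TGT-3 was at −0.62 ± 0.25 (adjusted p = 0.205). Thr-CGT-3-1 did pass without cerebrum mutant 2, cerebrum wildtype 2 or cerebellum mutant 5 (adjusted p = 0.0455, 0.042 and 0.0422). With depth class as a covariate Thr-AGT-6-1 no longer passed (0.82, adjusted p = 0.0666) and Thr-AGT-5-1 did (0.81, adjusted p = 0.0249). With spike-in scaling neither did (0.73, adjusted p = 0.551, and 0.57, adjusted p = 0.699). The share of all tRNAs called was 1.47% with depth class and 0 with spike-in scaling. DESeq2 called 4 threonine rows, adding Thr-CGT-3-1 and Thr-CGT-4-1, and 9.44% of the 180 tRNAs to which it gave an adjusted p. With a replicate block 4 threonine rows were called and 13.7% of all 204 tRNAs.

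Shares inside the AGT family need no scaling between libraries. Thr-AGT-6-1 made up 5.54%, 5.82%, 6.74%, 5.38% and 7.25% of Thr-AGT counts in cerebellum mutants, against a lowest of 5.64%, a median of 7.01% and a highest of 8.25% in wildtype. The difference of means was −0.84 percentage points (exact two-sided permutation p = 0.182, adjusted p = 0.242). Thr-AGT-5-1 made up 4.67%, 4.50%, 4.64%, 3.95% and 4.78% in cerebellum mutants and a lowest of 4.27%, a median of 4.79% and a highest of 5.75% in wildtype, a difference of −0.35 points (exact two-sided permutation p = 0.277, adjusted p = 0.277). Within depth classes, which nearly coincide with genotype, the difference was −1.21 points for Thr-AGT-6-1 (exact permutation p = 0.0667, 30 splits allowing none smaller, and 0.133 adjusted) and −0.14 points for Thr-AGT-5-1 (exact permutation p = 0.8). Neither share passed the test in cerebellum.

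In cerebrum the same shares separated the genotypes. Thr-AGT-6-1 made up 3.98%, 4.17%, 3.90% and 4.30% of Thr-AGT counts in mutants, against a lowest of 5.10%, a median of 7.54% and a highest of 9.65% in wildtype. Thr-AGT-5-1 made up 3.02%, 3.22%, 2.79% and 3.05% in mutants and a lowest of 3.89%, a median of 4.67% and a highest of 5.36% in wildtype. All mutants were below all wildtype libraries for both rows, with mean differences of −3.32 and −1.61 percentage points. These cerebrum shares describe the rows already singled out in those libraries. The Thr-AGT-6-1 share had an SD of 0.181 points over the 4 cerebrum mutants and 1.73 points over the 6 wildtype libraries.

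**Figure D3:**
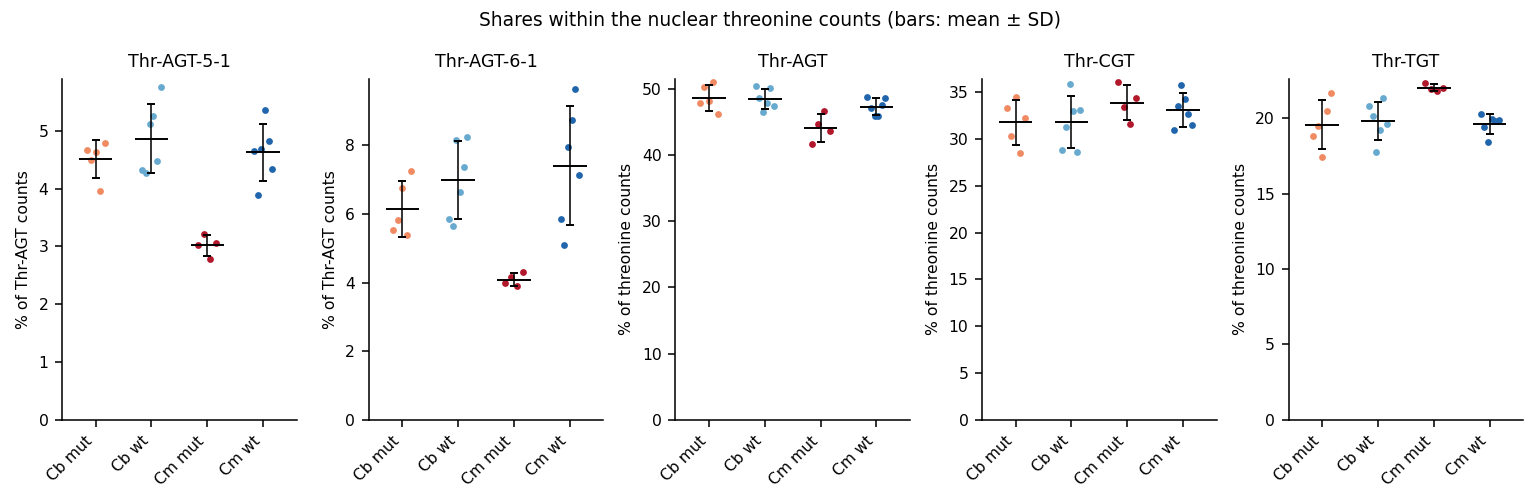
Share of Thr-AGT-5-1 and Thr-AGT-6-1 in Thr-AGT counts, and of each anticodon in all nuclear threonine counts (vertical axes, percent, from 0), with mutants left of wildtype in cerebellum (Cb) and cerebrum (Cm). Points are libraries and bars are mean ± SD; cerebrum mutants lie below wildtype in the first 2 panels and above it for Thr-TGT.

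Between anticodons, the AGT share of nuclear threonine counts was 48.7% ± 1.95 (SD, n = 5) in mutant cerebellum and 48.4% ± 1.55 (SD, n = 6) in wildtype cerebellum. It was 44.1% ± 2.09 (SD, n = 4) in mutant cerebrum and 47.3% ± 1.29 (SD, n = 6) in wildtype cerebrum, a difference of −3.19 points with 3 of 4 mutants below every wildtype library (exact two-sided permutation p = 0.0286, adjusted p = 0.0857). The TGT share was 22.0% ± 0.235 (SD, n = 4) in mutant cerebrum and 19.6% ± 0.653 (SD, n = 6) in wildtype cerebrum, with no overlap between the 4 mutants and the 6 wildtype samples (p = 0.00952 by the exact permutation test, two-sided, 210 splits allowing none smaller, and 0.0571 adjusted). Neither cerebrum difference passed once adjusted over the 6 shares tested. The CGT share was 33.9% ± 1.87 in mutant and 33.1% ± 1.78 in wildtype cerebrum (SD, n = 4 and 6; exact permutation p = 0.495, adjusted p = 0.99). In cerebellum the differences were 0.21 points for AGT, 0.02 for CGT and −0.23 for TGT (exact permutation adjusted p = 0.996 for each).

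Between tissues, most threonine tRNAs were lower in cerebellum than in cerebrum. In wildtype, 9 of 14 rows were lower and 1 higher, with a median log2 fold change of −0.60, while 37.7% of all 204 tRNAs were lower and 33.3% higher with a median of −0.05. All 4 CGT rows were lower, from −0.63 for Thr-CGT-1-1 to −0.89 ± 0.11 (SE) for Thr-CGT-4-1. Lower, too, were Thr-AGT-4-1 (−0.76), Thr-TGT-1-1 (−0.72), Thr-AGT-6-1 (−0.70), Thr-AGT-2-1 (−0.57) and Thr-AGT-5-1 (−0.55). The rare Thr-AGT-3-1 was higher at 0.98 ± 0.35 (SE, edgeR adjusted p = 0.013), but it did not pass with depth class as a covariate (adjusted p = 0.0732) or with spike-in scaling (adjusted p = 0.925). Thr-AGT-1, Thr-AGT-7-1, Thr-TGT-2-1 and Thr-TGT-3, at −0.34, −0.14, −0.27 and −0.13, did not pass. Each tissue has its own table, and a difference between tissues cannot be told apart from one between library batches. The p-values of tissue contrasts also treat the libraries as independent, though same-numbered ones may come from 1 mouse.

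The tissue difference held for the sums, with log2 fold changes of −0.60 ± 0.10 for Thr-AGT, −0.69 ± 0.11 for Thr-CGT and −0.61 ± 0.10 for Thr-TGT (SE, edgeR adjusted p = 7.2e-06, 1.76e-06 and 3.85e-06). In all, 75.0% of 72 anticodon sums differed between tissues and 38.9% were lower in cerebellum. Other nuclear isodecoders whose anticodon begins with A, which share the inosine edit with Thr-AGT, had a different placement. Of these 26, drawn from alanine, arginine, isoleucine, leucine, proline, serine and valine, 18 were higher in wildtype cerebellum and 5 lower, with a median of 0.66, though with spike-in scaling 1 was higher and 8 lower. In the genotype comparisons, 6 of the 26 were lower in mutant cerebrum (11.5% of all tRNAs were) and 1 in mutant cerebellum (1.98% of all), and none was higher in either. With TMM, mitochondrial threonine tRNA was higher in wildtype cerebellum than in wildtype cerebrum, at 0.81 ± 0.13 (SE, edgeR adjusted p = 5.26e-06). Of the 22 mitochondrial tRNAs, 8 were then higher and 5 lower, and with spike-in scaling 0 were higher and 16 lower.

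In mutants, 9 of 14 rows were again lower in cerebellum than in cerebrum and none was higher, with a median of −0.44, against 36.8% lower and 35.8% higher among all tRNAs. Thr-AGT-6-1 and Thr-AGT-5-1 were not among them. Their values were 0.21 ± 0.15 and 0.19 ± 0.12 (SE, edgeR adjusted p = 0.212 and 0.165), and the gap to the wildtype values equals the difference between tissues given above, since both come from the same fit. Thr-CGT-3-1 (−0.20, adjusted p = 0.146), Thr-AGT-7-1 (0.11) and Thr-AGT-3-1 (−0.08) did not pass either. Thr-TGT-2-1 (−0.76), Thr-TGT-3 (−0.75) and Thr-AGT-1 (−0.71) were lower in mutants, though their wildtype values did not pass. Whether the tissue difference of these 3 rows depended on genotype did not pass a test of its own (adjusted p = 0.368, 0.205 and 0.562). With spike-in scaling all 14 rows were lower in mutants, where 69.1% of all tRNAs were, and Thr-AGT-5-1, Thr-AGT-6-1 and Thr-AGT-7-1 turned negative. In wildtype 13 rows were then lower, where 67.6% of all tRNAs were. Scaled to library totals, 3 threonine rows were lower in mutant cerebellum and 3 higher, namely Thr-AGT-5-1 (0.51), Thr-AGT-6-1 (0.52) and Thr-AGT-7-1 (0.44), where 24.5% of all tRNAs were lower and 47.1% higher.

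**Figure D4:**
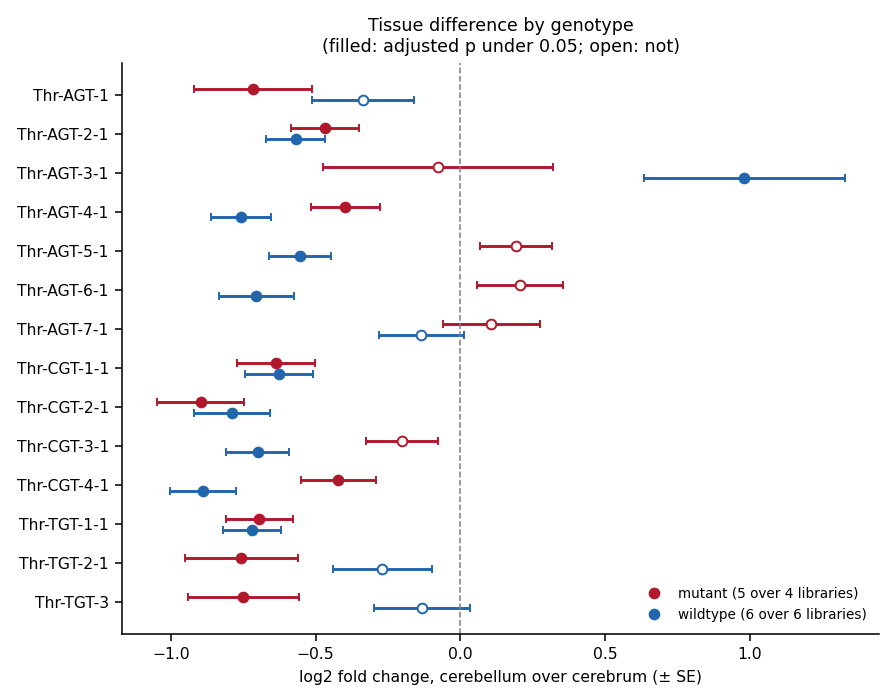
Log2 fold change of each threonine isodecoder, cerebellum over cerebrum ± SE (horizontal axis), in mutants above and wildtype below on each row; filled points passed an adjusted p of 0.05. Most points lie left of 0, while Thr-AGT-5-1 and Thr-AGT-6-1 lie at 0.19 and 0.21 in mutants and at −0.55 and −0.70 in wildtype.

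Across the 10 cerebrum libraries, the nuclear tRNAs outside the family most like Thr-AGT-6-1 in log2 CPM were Ala-AGC-5 (Pearson r = 0.952), Ala-AGC-1-1 (0.942) and Leu-AAG-3-1 (0.932). Over the 11 cerebellum libraries the same tRNAs had r of −0.208, 0.124 and −0.213. For Thr-AGT-5-1 they were Ala-AGC-1-1 (0.927), Lys-TTT-2 (0.905) and Met-CAT-4-1 (0.890), with −0.138, 0.373 and 0.214 in cerebellum. Thr-AGT-5-1 and Thr-AGT-6-1 had r of 0.625 with each other in cerebellum and 0.923 in cerebrum, and 0.652 and 0.547 once group means were removed. These libraries include both genotypes, and all values of a library share its depth and scaling, so the values are descriptions.

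With the group means removed, the 91 pairs of threonine rows had a median r of 0.283 over 11 cerebellum libraries and 0.331 over 10 cerebrum libraries. Thr-TGT-2-1 and Thr-TGT-3 moved most closely in cerebellum, with r of 0.922 there and 0.961 in cerebrum. Thr-AGT-1, of another anticodon, went with both of them, with r of 0.733 in cerebellum and 0.918 in cerebrum for Thr-TGT-3. With Thr-AGT-2-1, of its own anticodon, its r was 0.794 in cerebellum and 0.465 in cerebrum. Thr-CGT-1-1 and Thr-CGT-2-1 had r of 0.733 in cerebellum and 0.966 in cerebrum. Thr-AGT-6-1 had negative values with Thr-AGT-1, −0.337 in cerebellum and −0.372 in cerebrum. Reads shared between similar sequences, depth and scaling also enter these values, and their part was not tested.

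**Figure D5:**
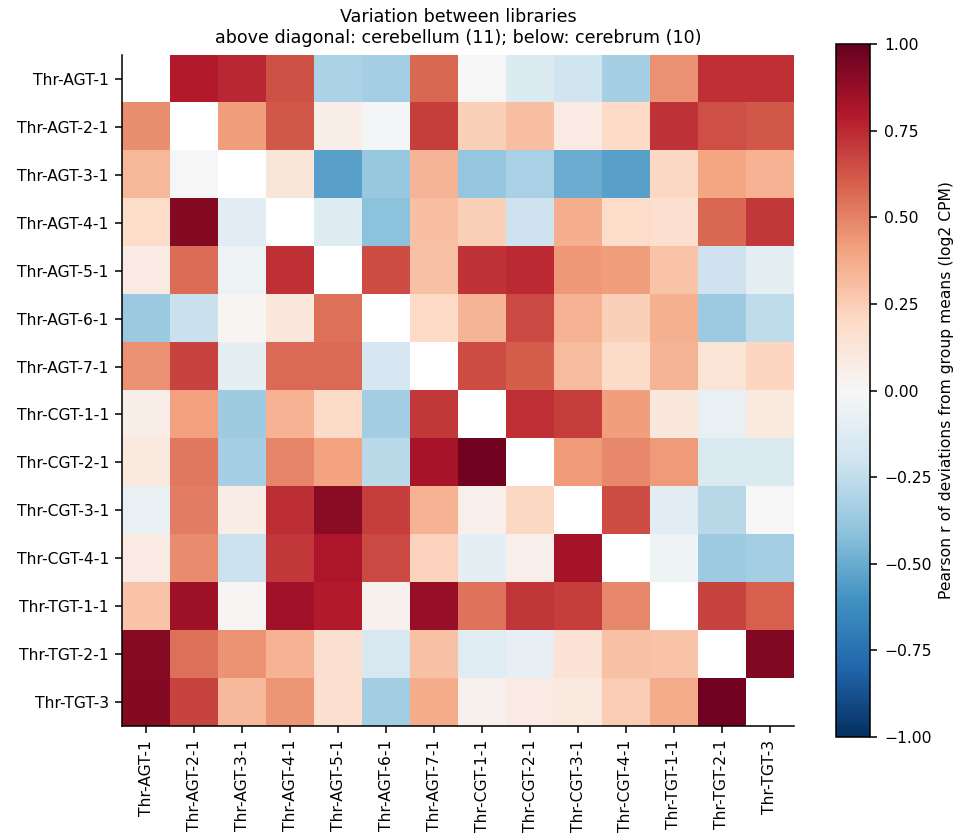
Pearson r of log2 CPM between threonine isodecoders over libraries, after group means were removed, with 11 cerebellum libraries above the diagonal and 10 cerebrum libraries below it. The dark red cells at Thr-TGT-2-1 with Thr-TGT-3 are 0.922 in cerebellum and 0.961 in cerebrum.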

How the data were processed

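QuantM-tRNA-seq counts from 21 libraries were analysed. The submitters' processing notes name cutadapt, Bowtie2, featureCounts, DESeq2 and the mm10 build, without settings. The authors deposited raw counts per tRNA for each tissue. Their deposited comparison tables hold log2 fold changes and errors, p-values, a test statistic (a score) and a mean signal in counts divided by size factors, per the file headers. Count columns were tied to samples by their names. Neither library sizes nor tests held the bacterial spike-in row, 0.222% to 1.08% of counts.

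Fits were made in edgeR 4.0.16 (R 4.3.3, limma 3.58.1) with TMM scaling, filterByExpr by group (minimum count 10), robust quasi-likelihood fits and Benjamini-Hochberg adjustment over all tRNAs; all 14 threonine rows passed the filter in both tissues. An SE is the log2 fold change over the square root of F. Genotypes were compared within each tissue. Tissue contrasts used all libraries in a fit with one mean per group. For shares, exact permutation tests were two-sided, with the smaller tail doubled, and were adjusted over 6 anticodon shares or 4 isodecoder shares. Tests within depth classes were adjusted over the cerebellum shares of each kind alone. A prior count of 2 was used for correlations of log2 CPM. Alternatives were RLE and library total scaling, mitochondrial total and spike-in scaling, other filters, DESeq2 1.42.0, sex, depth class (split at 3000000 counts), a replicate block and leaving out each library. The fits were tested on simulated counts. Replicates of a group all differed by more than sampling noise (lowest chi-square per degree of freedom 46.2 over 46 pairs).

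The members and lists were chosen with earlier results of these data known. Values by library (lowest, median and highest in groups of 6) were given for Thr-AGT-5-1, Thr-AGT-6-1, anticodon sums and the most abundant row of each anticodon. The mitochondrial threonine tRNA was added for comparison, and the 3 most alike tRNAs were named by Pearson r in cerebrum. Other rows given per class or by mean were picked after their values were seen.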

Additional observations from a re-analysis of the deposited data

Results flagged for a closer look

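The genotype change differed between tissues for Thr-AGT-5-1 (cerebellum change minus cerebrum change, 0.74 on the log2 scale) and for Thr-AGT-6-1 (0.91), by the edgeR test of the difference itself (adjusted p = 0.00916 for each). Both differences contain the cerebrum change for which these rows were singled out. With spike-in scaling neither passed, and with depth class as a covariate Thr-AGT-6-1 did not.

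In 8 of 88 groups of values a single library stood far from the others, where chance gives about 1 in 20 for independent groups. The groups share libraries and the sums contain their rows, so the 8 cannot be weighed against that rate. In cerebellum, mutant 5 was the highest mutant for Thr-TGT-1-1 (5924 CPM) and the Thr-TGT sum (6269 CPM). In cerebrum, mutant 2 was the highest mutant for Thr-AGT-5-1 (512 CPM) and Thr-CGT-3-1 (2629 CPM). Cerebrum wildtype 1 was the highest wildtype library for Thr-AGT-1 (109 CPM), Thr-AGT-7-1 (64.5 CPM), Thr-TGT-3 (921 CPM) and the Thr-TGT sum (8007 CPM).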

How the results depend on the processing

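The falls of Thr-AGT-5-1 and Thr-AGT-6-1 in cerebrum passed under every alternative run, at −0.64 to −1.12 and −0.86 to −1.35 on the log2 scale, all with adjusted p of 0.00492 or less. These runs reused the cerebrum libraries in which both rows were singled out, so they are a description and not independent evidence. With mitochondrial total scaling the threonine rows called were 9 in cerebrum and 4 in cerebellum, and the anticodon sums called in cerebrum were 2 (Thr-AGT and Thr-CGT), against 0 with TMM. Spike-in scaling gave 6 rows in cerebrum, 4 in cerebellum, 0 for the difference between tissues and 14 for the mutant tissue comparison. DESeq2 gave 3 in cerebellum and 4 for the difference between tissues, and depth class as a covariate gave 1 for that difference. Leaving out single libraries gave 0 to 2 rows in cerebellum. Thr-CGT-2-1 turned to −0.32 in cerebrum with mitochondrial scaling. Thr-AGT-5-1, Thr-AGT-6-1 and Thr-AGT-7-1 turned to −0.89, −0.86 and −0.96 in the mutant tissue comparison with spike-in scaling. Part of these moves follows from the scales themselves, and other causes were not tested. The amount of spike-in per library is not given, and precision for Thr-AGT-3-1 is limited by its counts.

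Replicate numbers recur across groups. Mutant and wildtype libraries with the same number did not deviate together in every pair, so they were not paired. Their r was −0.258 to 0.576 in cerebrum and 0.00473 to 0.197 in cerebellum. These values do not tell whether same-numbered libraries of both tissues come from 1 mouse, and the main fit did not pair those either. Across tissues, same-numbered libraries had the same sex label for 10 of 10 shared numbers. Their r was −0.141 to 0.269 in mutants, 1 of 4 being best matched to its own number, and 0.0304 to 0.453 in wildtype, 4 of 6 being so, a hint from the data and not the design. With a replicate block that joined same-numbered libraries of a genotype across tissues, 4 rows passed for the difference between tissues, with Thr-CGT-3-1 higher (0.51, adjusted p = 0.0498) and Thr-TGT-3 lower (−0.69, adjusted p = 0.0292) added. Paired shares in cerebrum differed by −1.63 points for Thr-AGT-5-1 and −2.83 points for Thr-AGT-6-1 (exact sign-flip permutation p = 0.125 for both, the smallest that 4 pairs allow). Over all tRNAs a block gave 65 calls in cerebrum, against 41 without it, and 28 against 10 for the difference between tissues.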
